A study of Mus musculus with 23 samples.

Results

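The genes described here carry symbols of motile cilium genes, though a symbol does not show that each encodes a part of it. The rule took the Cfap, Dnah, Rsph, Tekt and Drc families, Spag6, Spag6l, Spag16 and Spag17, with Foxj1, Ccdc153, Ccdc33 and Ak7 added, and with at least 15 reads over the dorsal libraries. The rule gave 60 of 24985 gene symbols. No matching symbol fell under the read minimum, and the member with the fewest dorsal reads was Rsph6a, with 20. RNA with a poly(A) tail was sequenced from the hippocampus of C57BL6/J mice in which exons 3 to 7 of Acss2, the gene of an enzyme that makes acetyl-CoA from acetate, had been deleted in the single-cell embryo, so that the loss is not limited to a cell type. KO mice lacked both copies, Het mice 1 copy, and WT mice none. Whole hippocampus, dissected freehand, came from WT, Het and KO mice (2 libraries each, labelled baseline, batch B0). Dorsal hippocampus, in sections of 1 mm, came from WT mice taken from the home cage (n = 5) or taken 30 min after learning to fear a context through 1 shock (n = 3), and from KO mice in the same conditions (n = 5 home cage, n = 4 fear). The labels do not say whether libraries are separate animals, so the p-values below measure only the spread between these samples, which may be technical.

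Motile cilia are long hair-like extensions that beat because dynein motors slide doublet microtubules past one another. Radial spokes, the central apparatus and the nexin-dynein links shape that sliding into a bend, and the transcription factor FOXJ1 turns on many of the genes for these parts. In the brain the ependymal cells that line the ventricles carry tufts of such cilia and move cerebrospinal fluid, and the choroid plexus, which secretes that fluid, is ciliated as well. Neurons and astrocytes carry a single primary cilium that does not beat and that shares some parts with motile cilia.

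Regulatory sequence was examined because motile cilia genes share 2 known classes of upstream regulators, the RFX proteins, which bind the X-box, and FOXJ1, a forkhead protein. RefSeq promoters on GRCm38.p6, from 250 bases before to 50 bases after a gene's start, were found for 50 of the 60 members (58 promoters). The X-box was searched as GTNNCC and GGNNAC with any 2 bases between them, which reads the same on both strands, and the forkhead motif as GTAAACA on both strands. An X-box stood in 12.1% of the members' promoters and in 1.88% of all 32851 promoters, in Cfap126, Cfap77, Cfap206, Spag6l, Cfap298, Tekt4 and Rsph9. The forkhead letters stood in 8.62% of the members' promoters and in 3.65% of all, in Ak7, Cfap43, Cfap20, Tekt3 and Dnah17. The X-box arm GTTGCC, which lies within some of these X-boxes, stood in 36.2% against 12.5%, and a stricter X-box, GTTGCC followed by AT and GGNAAC, in 0% against 0.07%. These are matches of letters, and promoters share base composition with their gene class, so the shares are a description. The stretches around 4 matches are shown as examples, chosen after the values were seen: Ak7 and Cfap43 hold the forkhead letters and passed the test in WT fear against WT home cage, and Cfap206 and Cfap77 hold an X-box and had higher levels in every WT home cage library than in any WT fear library. Cfap206 and Cfap77 did not pass (adjusted p = 0.0823 and 0.147 by edgeR's test). Cfap20, with the forkhead letters, had a log2 difference of -0.04 ± 0.12 with overlapping groups. The X-box members Cfap298 (-0.08 ± 0.16) and Rsph9 (-0.16 ± 0.22) overlapped as well, while Cfap126 was wholly lower without passing (-2.21 ± 0.78). A link between motif and change was not tested. Each runs 5′ to 3′ on the strand of its gene, capitals mark the motif, and distances count bases before the RefSeq start.
Ak7, forkhead letters at 131 to 125 bases before the start, chr12:105705825-105705884 (+), outside annotated transcripts: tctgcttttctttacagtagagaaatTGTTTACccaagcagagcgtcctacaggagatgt
Cfap43, forkhead letters at 55 to 49 bases before the start, chr19:47837383-47837442 (-), within an intron of a longer Cfap43 transcript: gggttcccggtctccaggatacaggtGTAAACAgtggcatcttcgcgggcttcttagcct
Cfap206, X-box at 23 to 10 bases before the start, chr4:34730207-34730266 (-), outside annotated transcripts: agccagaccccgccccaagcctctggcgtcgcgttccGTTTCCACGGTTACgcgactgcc
Cfap77, X-box at 236 to 223 bases before the start, chr2:29055257-29055316 (-), outside annotated transcripts: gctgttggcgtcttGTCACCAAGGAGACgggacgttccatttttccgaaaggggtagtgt

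Library totals ran from 5362773 to 9109104 counts in WT fear, from 7790467 to 22388429 in WT home cage, from 14054430 to 23412644 in KO home cage, from 7142143 to 19136156 in KO fear and from 18814460 to 27293661 in whole hippocampus. Each WT fear library was of batch B1, with WT home cage 1 and 2 and KO fear 1 and 2, and B1 was the shallowest batch. Levels are counts per 1000000 (CPM) of the scaled library total, and 1 read was worth 0.110 to 0.188 CPM in WT fear. Acss2 followed the labels, at 56.2 to 71.3 CPM in dorsal WT and 3.87 to 6.04 CPM in dorsal KO libraries. Whole hippocampus had 60.3 to 60.9 CPM of it for WT, 31.2 to 34.3 CPM for Het and 6.73 to 7.02 CPM for KO. Intervals on read ratios cover only the error of counting, because the reads carry no molecular identifiers and need not come from different molecules.

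The 60 members together took 0.0395% to 0.0712% of the counts of a library, and they were far from equal. Per kilobase of exon, the mean dorsal level was highest for Cfap36, an ARL3-binding protein, at 55.2 CPM per kb, followed by Cfap298 at 24.9, Rsph9 at 10.1, Cfap97 at 8.45 and Cfap20, a protein of the inner junction of the doublet, at 7.33. The ependymal markers Ccdc153 (5.06) and Foxj1 (4.83) ranked 7 and 8 by that measure. The 5 members with the most reads, Cfap36, Cfap97, Cfap298, Dnah9 and Cfap20, supplied a summed 292 to 309 CPM in WT home cage and 253 to 319 CPM in WT fear, and these ranges overlapped. The other 55 members summed to 225 to 379 CPM in WT home cage (mean 282 ± 66.2, SD, n = 5) and to 151 to 171 CPM in WT fear (158 ± 11.6, n = 3), and here no library of one group reached the other. In KO the other 55 summed to 155 to 339 CPM in the home cage (219 ± 71.0, n = 5) and 184 to 325 CPM after fear (246 ± 66.9, n = 4). These sums over genes chosen with results known carry no test.

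**Figure D1:**
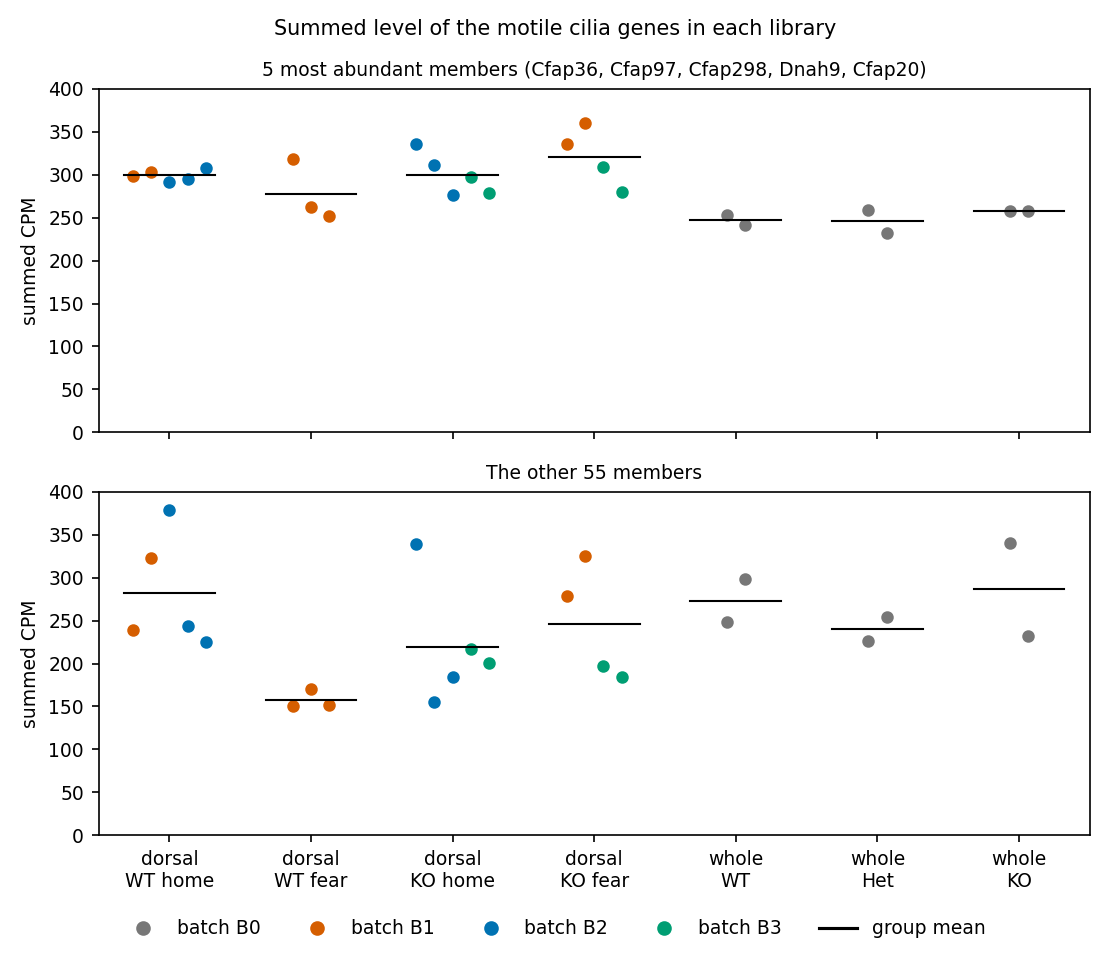
Summed CPM of the 5 most abundant members (top) and the other 55 (bottom) in each library, coloured by batch, with the group mean as a line. The 3 WT fear libraries sit at 151 to 171 CPM for the other 55, under each WT home cage library (225 to 379), while the 5 abundant members overlap between these groups.

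The highest levels gathered in a few libraries. WT home cage 3 had the highest level of 22 members among the 17 dorsal libraries, KO home cage 1 of 10 and KO fear 2 of 10. The lowest level alone fell in WT fear 3 for 16 members, in WT fear 2 for 12, and in WT fear 1 and KO home cage 2 for 8 each. These counts were not made over all genes, and WT fear was of the shallowest batch, so they are not read as a trait of the members. KO home cage 1 stood apart from the other 4 KO home cage libraries, with a member sum of 676 CPM against 461 to 514 CPM. KO fear 1 and 2, of batch B1, had sums of 614 and 685 CPM, and KO fear 3 and 4, of B3, 506 and 464 CPM.

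**Figure D2:**
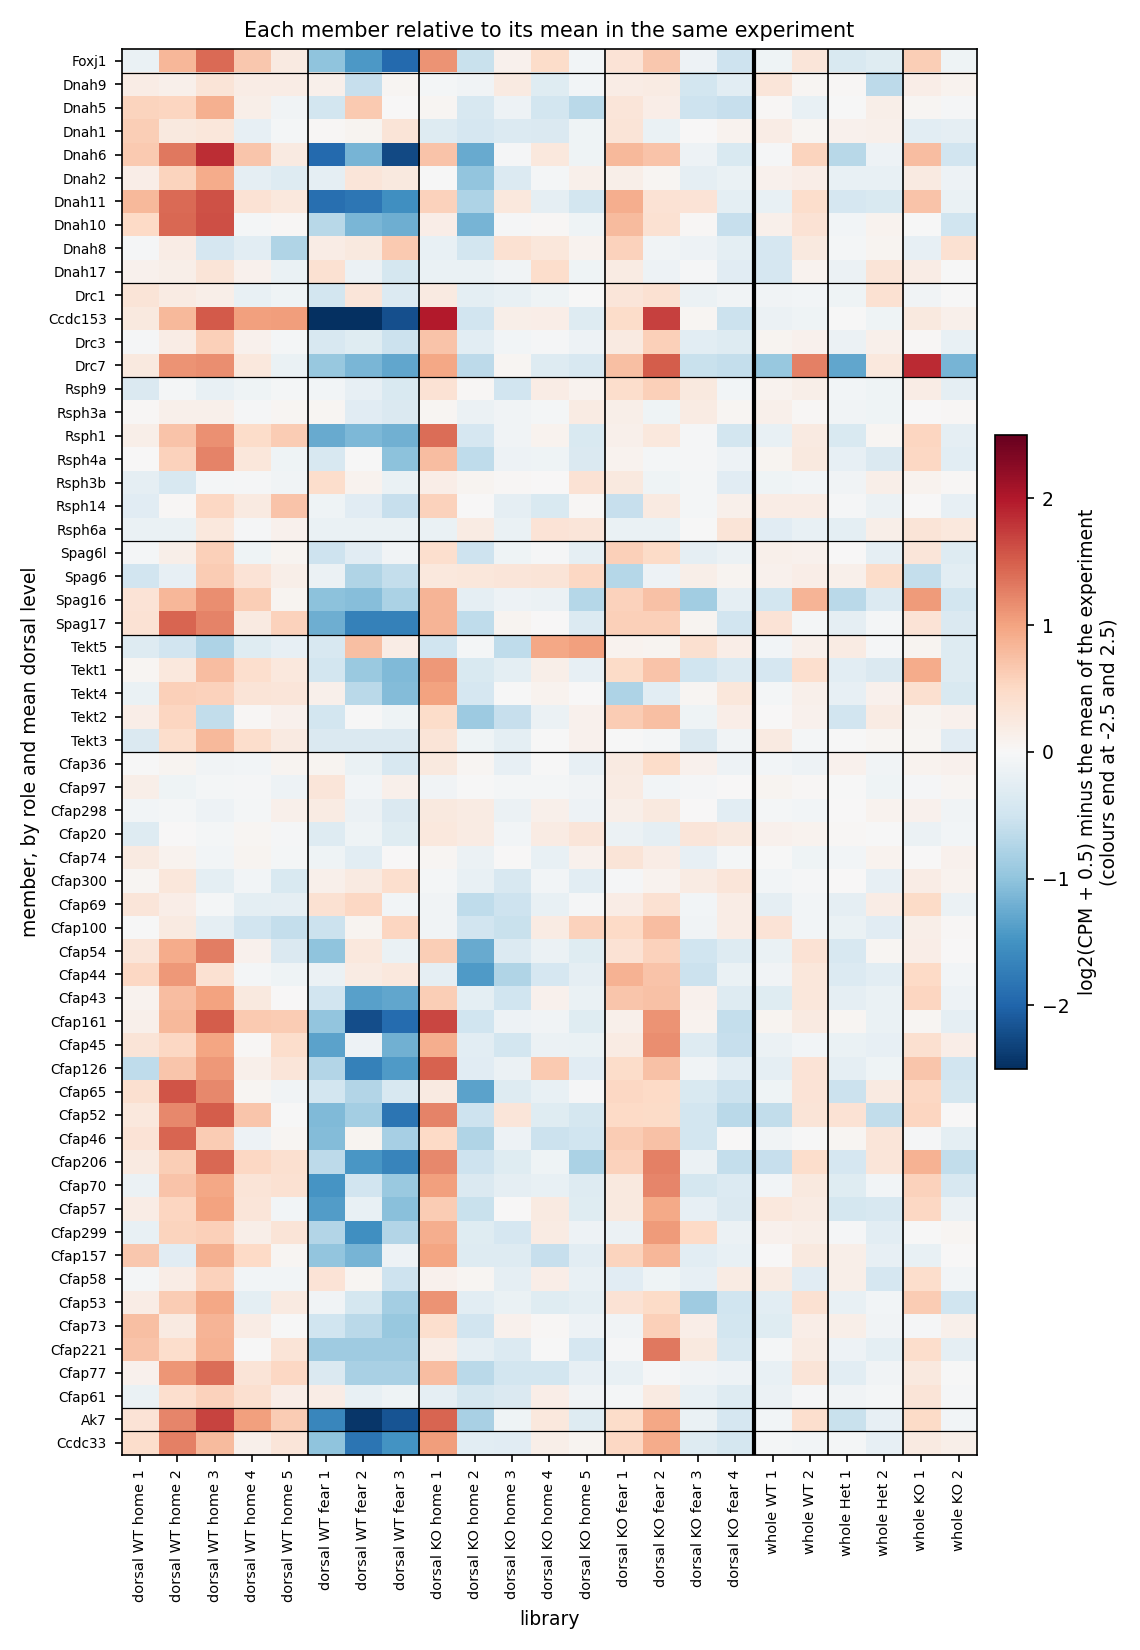
Level of each of the 60 members in each of the 23 libraries, as log2(CPM + 0.5) minus the member's mean within the dorsal or the whole hippocampus experiment (colour, ends at -2.5 and 2.5). Rows are grouped by role, thin vertical lines part the groups and the thick line parts the experiments. The 3 WT fear columns are blue for many members, and WT home cage 3, KO home cage 1 and KO fear 2 are red.

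The first comparison asks how fear conditioning bore on these genes in WT mice. Some of the motile cilia genes were lower in the WT fear libraries: 10 of the 56 members that could be tested fell and 0 rose (edgeR's quasi-likelihood test with batch as a term, Benjamini-Hochberg adjusted p under 0.05 over 14808 genes). Over all genes tested, 0.756% fell by the same rule and 1.63% changed in either direction. In bulk tissue, fewer cells of a type and less RNA per cell cannot be told apart. The members' median log2 change was -1.29, against -0.02 over all genes, and 50 of 56 estimates lay below 0. With the member at 0 reads in WT fear set to its bound the median was -1.11. Members that pass a filter through the group in which they are high must differ, so all 60 were also fitted with a minimum of 15 reads in total. In that fit 11 fell and 0 rose, with a median of -1.10. The 3 WT fear libraries lay wholly below the 5 WT home cage libraries for 27 members (8.45% of all genes) and wholly above for 1, Dnah8 (7.7% of all genes), a member named because of that count. An unadjusted p under 0.05 was reached by 30 members, against 20.8% of all genes.

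Foxj1 (mm10, chr11:116330704-116335399, minus strand), the transcription factor of the motile cilium programme, was at 9.55, 19.3, 29.6, 17.4 and 12.6 CPM in WT home cage 1 to 5. After fear it was at 5.08, 3.62 and 2.40 CPM, each below the lowest home cage value. Its mean went from 17.7 ± 7.70 (SD, n = 5) to 3.70 ± 1.34 CPM (n = 3), and the log2 change was -2.24 ± 0.54 (SE, adjusted p = 0.0467).

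The dynein heavy chains, the motors themselves, split by gene. Dnah11 (chr12:117877982-118199043, minus strand), of the outer dynein arm, was at 3.93, 6.27, 7.14, 2.75 and 2.55 CPM in WT home cage and at 0.188, 0.219 and 0.379 CPM in WT fear. The groups did not overlap, and Dnah11 fell by 4.17 ± 0.72 on the log2 scale (adjusted p = 0.0186). Dnah6, an inner arm chain, fell by 3.41 ± 0.70 (adjusted p = 0.0329), from 7.08, 11.5, 16.9, 7.30 and 5.11 CPM to 0.753, 1.64 and 0.505 CPM. The outer arm chain Dnah9 was at 37.7, 36.6, 41.8, 38.1 and 37.9 CPM in the home cage and at 36.3, 22.3 and 34.6 CPM after fear, with a log2 difference of -0.36 ± 0.17 that did not pass (adjusted p = 0.241), although the 3 fear values were all under the home cage values. Dnah1 and Dnah5, of the inner and the outer arm, gave -0.25 ± 0.19 and -0.42 ± 0.28, with groups that overlapped. In all, 2 of 8 tested heavy chains fell (0.756% of all genes), and 4 had fear values wholly below the home cage values (8.45% of all genes). Dnah8 was wholly above (7.7% of all genes), and the 8 estimates ran from -4.17 to 0.42.

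Of the 4 nexin-dynein genes, 2 fell (0.756% of all genes). Ccdc153 (chr9:44240676-44247306, plus strand), a subunit of the nexin-dynein link and a common ependymal marker, was at 8.42, 12.7, 21.1, 14.7 and 14.9 CPM in WT home cage and at 0.565, 0.548 and 1.14 CPM in WT fear, a log2 change of -4.02 ± 0.86 (adjusted p = 0.0344). Drc7 was at 5.39, 10.3, 10.7, 5.46 and 3.93 CPM and then 2.07, 1.75 and 1.52 CPM, a log2 change of -2.34 ± 0.56 (adjusted p = 0.0467). For both genes every fear value lay below every home cage value. Drc1, a core subunit of the same complex, was at 9.18 to 13.3 CPM and 7.53 to 13.0 CPM, with overlapping groups and a difference of -0.41 ± 0.20.

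Among the central apparatus genes Spag17 (chr3:99885406-100143322, plus strand) passed. It had 170 reads in the 5 WT home cage libraries, at 1.57, 3.89, 3.29, 1.38 and 1.89 CPM, and 1 read in the 3 WT fear libraries, at 0.188, 0 and 0 CPM. The read ratio was 50.1 (95% interval 8.87 to 1989), and the fitted log2 change of -5.69 ± 1.06 (adjusted p = 0.0243) depends on the prior count. Spag16 fell short of the threshold at -2.28 ± 0.57 (adjusted p = 0.0521), with 1.79 to 4.37 CPM in the home cage and 0.548 to 0.758 CPM after fear, and no overlap. Spag6 and Spag6l, near relatives encoded on different chromosomes, gave -0.33 ± 0.30 and -0.52 ± 0.29.

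No radial spoke or tektin gene passed. Rsph1, of the spoke head, was at 6.29, 9.54, 13.0, 7.89 and 8.93 CPM and then 2.07, 2.30 and 2.15 CPM, without overlap, at -1.86 ± 0.51 (adjusted p = 0.0653). Rsph9, also of the spoke head, was at 12.2 to 15.3 CPM in the home cage and 12.1 to 15.3 CPM after fear, with a difference of -0.16 ± 0.22. Rsph3a gave -0.31 ± 0.16, but 74% of its stretches of 50 bases recur in Rsph3b, so the split of reads between that pair is uncertain. Tekt1, a filament protein inside the doublet, was at 3.71 to 6.41 CPM and 1.39 to 2.45 CPM (-1.45 ± 0.49, adjusted p = 0.114), and Tekt5 at 2.49 to 3.93 and 3.39 to 8.11 CPM (0.46 ± 0.34, adjusted p = 0.436).

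Of the 28 Cfap genes, many of which encode proteins of the axoneme, 2 fell (0.756% of all genes). Cfap43 was at 4.16, 6.90, 8.28, 4.68 and 3.88 CPM in WT home cage and 2.64, 1.21 and 1.26 CPM in WT fear, a log2 change of -1.96 ± 0.47 (adjusted p = 0.0481). Cfap221, a protein of the central apparatus, had 58 reads in WT home cage (1.01, 0.753, 1.19, 0.413 and 0.664 CPM) and 0 in WT fear. Against a floor of 3 counts per library, 0.424 CPM on average, it was at least 1.90-fold lower after fear (adjusted p = 0.0494). With these 2, 13 Cfap genes were wholly lower after fear (8.45% of all genes). Among them were Cfap161, a protein of the doublet lumen (-3.38 ± 0.93, adjusted p = 0.0673), Cfap206, of the base of a radial spoke (-2.96 ± 0.89, adjusted p = 0.0823), and Cfap52 (-2.67 ± 0.69, adjusted p = 0.0573), each of which missed the threshold. The abundant Cfap36, Cfap97, Cfap298 and Cfap20 gave -0.21 ± 0.14, 0.11 ± 0.11, -0.08 ± 0.16 and -0.04 ± 0.12, with overlapping groups. Of the exon sequence of Cfap298, 53.6% overlaps genes on the opposite strand, and the library kit does not mark strand.

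Ak7 (chr12:105705976-105782447, plus strand), an adenylate kinase of motile cilia, was at 5.95, 11.3, 15.8, 9.87 and 7.35 CPM in WT home cage and at 1.13, 0.438 and 0.631 CPM in WT fear. It fell by 3.83 ± 0.77 on the log2 scale (adjusted p = 0.0306), with no overlap. Ccdc33 had 156 reads in WT home cage, at 1.91, 3.76, 2.55, 1.42 and 1.68 CPM, and 3 reads in WT fear, at 0.377, 0 and 0.126 CPM. That is a read ratio of 15.3 (95% interval 5.15 to 75.1), with a fitted log2 change of -4.41 ± 0.82 (adjusted p = 0.0243). Opposite-strand genes cover 13.7% of the exons of Ccdc33 and 15.7% of those of Spag17. The 4 members that could not be tested were Dnah17, with 17 reads in WT home cage and 3 in WT fear, Rsph14 with 35 and 2, Rsph6a with 6 and 0, and Tekt3 with 27 and 0. None of these 4 passed in the fit with a minimum of 15 reads.

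**Figure D3:**
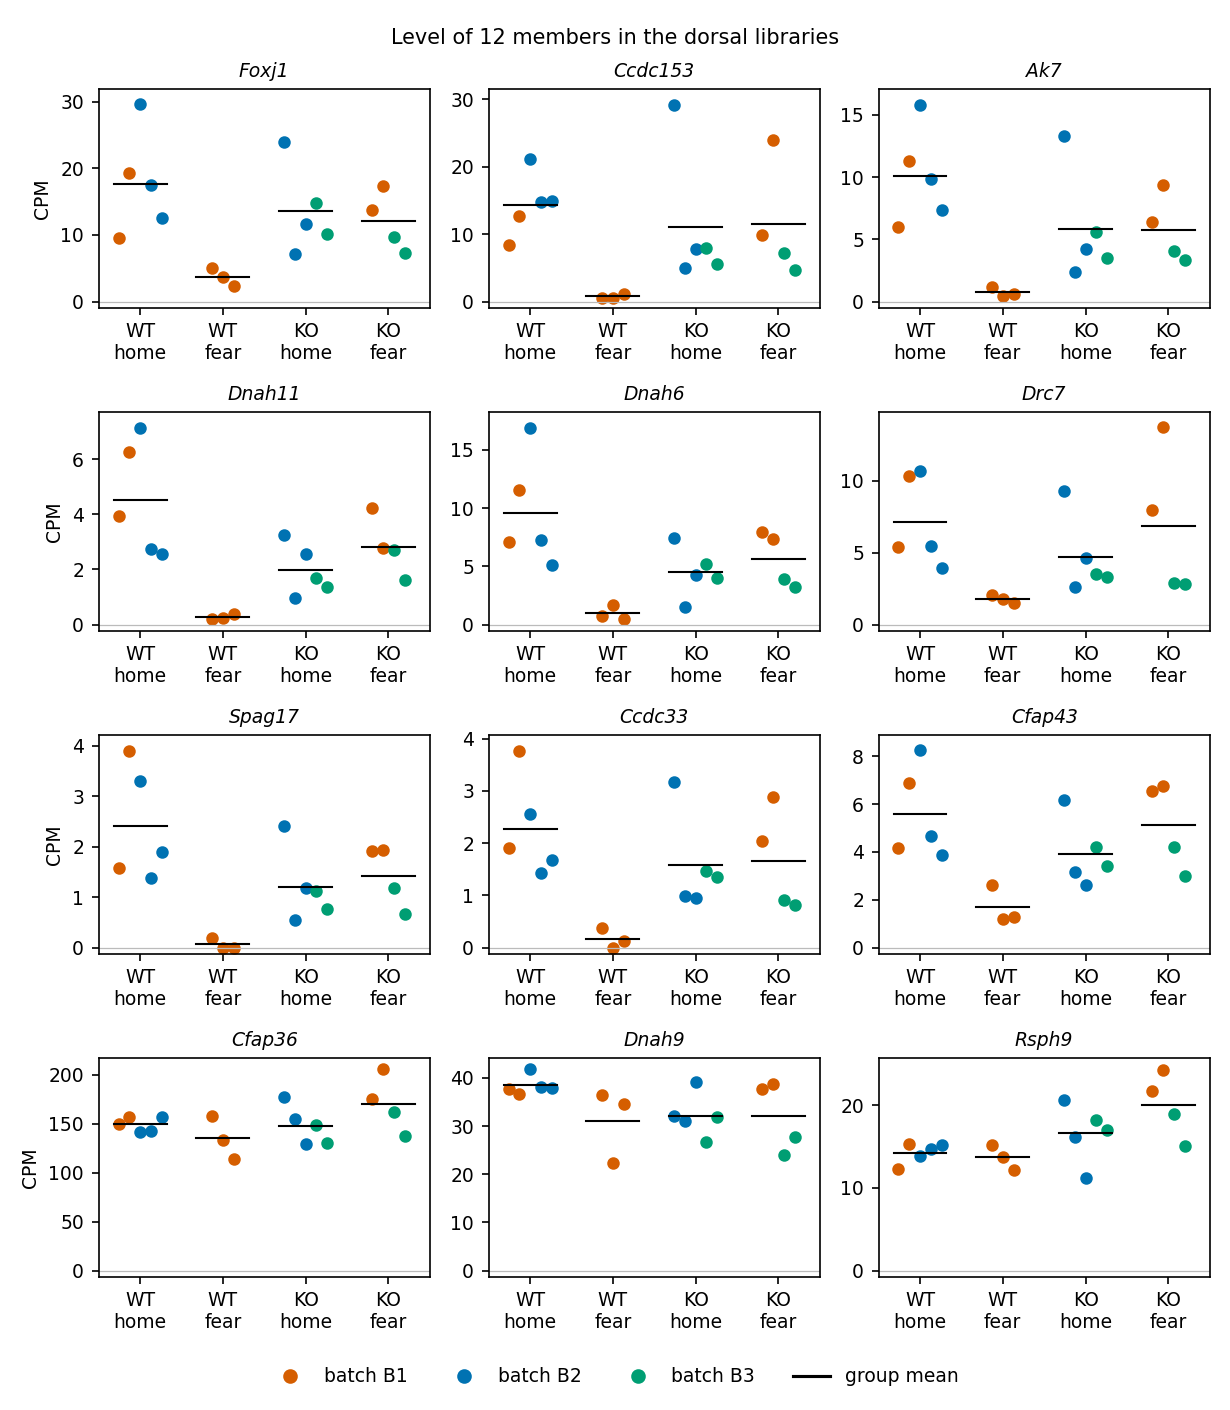
CPM of 12 members in the dorsal libraries, with a point for each library coloured by batch and a line at the group mean, each panel on its own axis from 0. The first 9 panels are members that fell in WT fear, except Cfap221, and their WT fear points lie under all WT home cage points; Cfap36 and Rsph9 overlap between these groups and Dnah9 reaches 36.3 CPM after fear against 36.6 CPM or more in the home cage.

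Single libraries moved the count of calls. No member passed without WT home cage 2, without WT fear 2 or without WT fear 3. The count was 3 without KO home cage 4, 4 without KO fear 4, 5 without KO fear 2, and 6 without WT home cage 4, KO home cage 5 or KO fear 3, with 0.214% to 0.765% of all genes called in these fits. It was 17 without WT home cage 1 (5.56% of all genes called) and 21 without KO home cage 1 (4.44% of all genes called). The median over members stayed between -1.48 and -1.08 in these fits. In other tools 3 members passed by limma's voom (Ccdc33, Cfap221 and Spag17, with 0.479% of all genes called) and 22 by DESeq2 (6.33% of all genes called). Within batch B1, which holds WT home cage 1 and 2 and the 3 WT fear libraries, Ccdc153 (-3.75 ± 0.37, adjusted p = 0.0167), Dnah11 (-4.15 ± 0.47, adjusted p = 0.0372) and Ak7 (-3.61 ± 0.44, adjusted p = 0.0404) fell, against 0.0365% of all genes called there in either direction. Foxj1 was at -1.98 ± 0.36 there (adjusted p = 0.103), and the 45 members tested in B1 had a median of -0.84. When each dorsal library was thinned to the smallest total, an alternative added after seeing the data, 13 members fell and 0 rose, against 2.08% of all genes called in either direction.

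Other gene lists moved in the same libraries, and their part in the result was not tested. Of the list of 61 tested motile cilia genes with other symbols, 5 fell and 0 rose (median -1.41). Ependymal markers outside the axoneme had a median of -1.41, with 2 of 14 lower, Pltp (-1.52 ± 0.32, adjusted p = 0.0330) and Vim (-1.13 ± 0.27, adjusted p = 0.0454), and their sum was 403 to 525.5 CPM in WT home cage and 352 to 365 CPM in WT fear. All 8 defining ependymal markers of the list were detected in every home cage library. The ependymal marker Tmem212 was at 1.80 to 8.28 CPM in WT home cage and at 0.188, 0.110 and 0 CPM in WT fear, and Dynlrb2, a dynein light chain, at 1.35 to 4.71 CPM and at 0.188, 0.438 and 0 CPM. Of the 17 tested choroid plexus genes 2 fell (median -1.45), and the list summed to 438 to 673 CPM in WT home cage and 199 to 384 CPM in WT fear. Oligodendrocyte genes summed to 7425 to 14793 CPM and 4339 to 5748 CPM, with 10 of 15 lower (median -1.22). Genes of CA1 pyramidal neurons went the other way, with 5 of 9 higher (median 1.20) and sums of 427 to 609 CPM and 718 to 1226 CPM. Smooth muscle and pericyte genes had 2 of 11 lower (median -0.45), and genes of CA2 and CA3 neurons 3 of 14 lower (median -0.80). Endothelial genes had 0 of 8 called (median -0.52), with sums of 73.8 to 121 CPM in WT home cage and 58.1 to 62.6 CPM in WT fear. Neocortical genes had 0 of 10 called (median 0.16), with sums of 263 to 275 CPM and 289 to 385 CPM. Neither of these sums overlapped between the groups.

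Another 3 lists had medians close to 0. Genes of intraflagellar transport and primary cilia, which build cilia of every kind, had 0 of 39 called in WT fear against WT home cage and a median of -0.04. Their sum was 1768 to 1852 CPM in WT home cage and 1855 to 1943 CPM in WT fear, wholly higher after fear. Regulators of multiciliated cells had 0 of 14 called and a median of -0.12, and in this list the RFX factor Rfx3 was at 0.32 ± 0.18 (adjusted p = 0.323) and Rfx4 at -0.09 ± 0.17. Astrocyte genes had 0 of 10 called and a median of 0.03. The sums of the regulators and of the astrocyte genes overlapped between these groups. Whether these lists differed from the motile cilia genes was not tested.

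In KO mice the same comparison gave no call. After fear, 0 of 56 members passed against KO home cage, as did 0% of all genes. An unadjusted p under 0.05 was reached by 0 members, against 4.82% of all genes. DESeq2 called 0 members and 6 genes in all, and voom called 0. The members' median log2 difference was 0.07, and estimates ran from -0.54 to 0.84. Wholly lower after fear was 1 member, Spag6 (1.97% of all genes), and 1 wholly higher, Cfap300 (2.33% of all genes), both named because of those counts.

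Foxj1 was at 23.9, 7.15, 11.6, 14.8 and 10.2 CPM in KO home cage and at 13.7, 17.3, 9.73 and 7.31 CPM in KO fear, a log2 difference of -0.12 ± 0.40. Ccdc153 was at 29.1, 4.89, 7.74, 7.96 and 5.53 CPM and then 9.84, 24.0, 7.26 and 4.67 CPM (0.28 ± 0.50). Dnah11 was at 3.27, 0.979, 2.55, 1.68 and 1.35 CPM and then 4.24, 2.77, 2.69 and 1.62 CPM (0.43 ± 0.43). In each of these genes the KO groups overlapped, and KO home cage 1 was the highest home cage library. Ak7 and Spag17 gave 0.06 ± 0.48 and 0.05 ± 0.50, with overlap, and Ccdc33 gave -0.43 ± 0.46. With standard errors of 0.40 to 0.50 on the log2 scale for these genes, changes of that size could not be detected with these libraries. Within batch B3, which holds KO home cage 4 and 5 and KO fear 3 and 4, 0 members passed (0.0138% of all genes), and the median was -0.13. Several values moved there: Foxj1 was at -0.56 ± 0.23, Ak7 at -0.32 ± 0.27, Ccdc153 at -0.19 ± 0.27, Dnah6 at -0.38 ± 0.24 against 0.11 ± 0.47 over all libraries, and Drc7 at -0.26 ± 0.23 against 0.17 ± 0.42. Dnah11 was at 0.50 ± 0.35 within the batch. Except for Foxj1 and Dnah11, these estimates had the opposite sign to those over all libraries, and none passed in either fit.

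**Figure D4:**
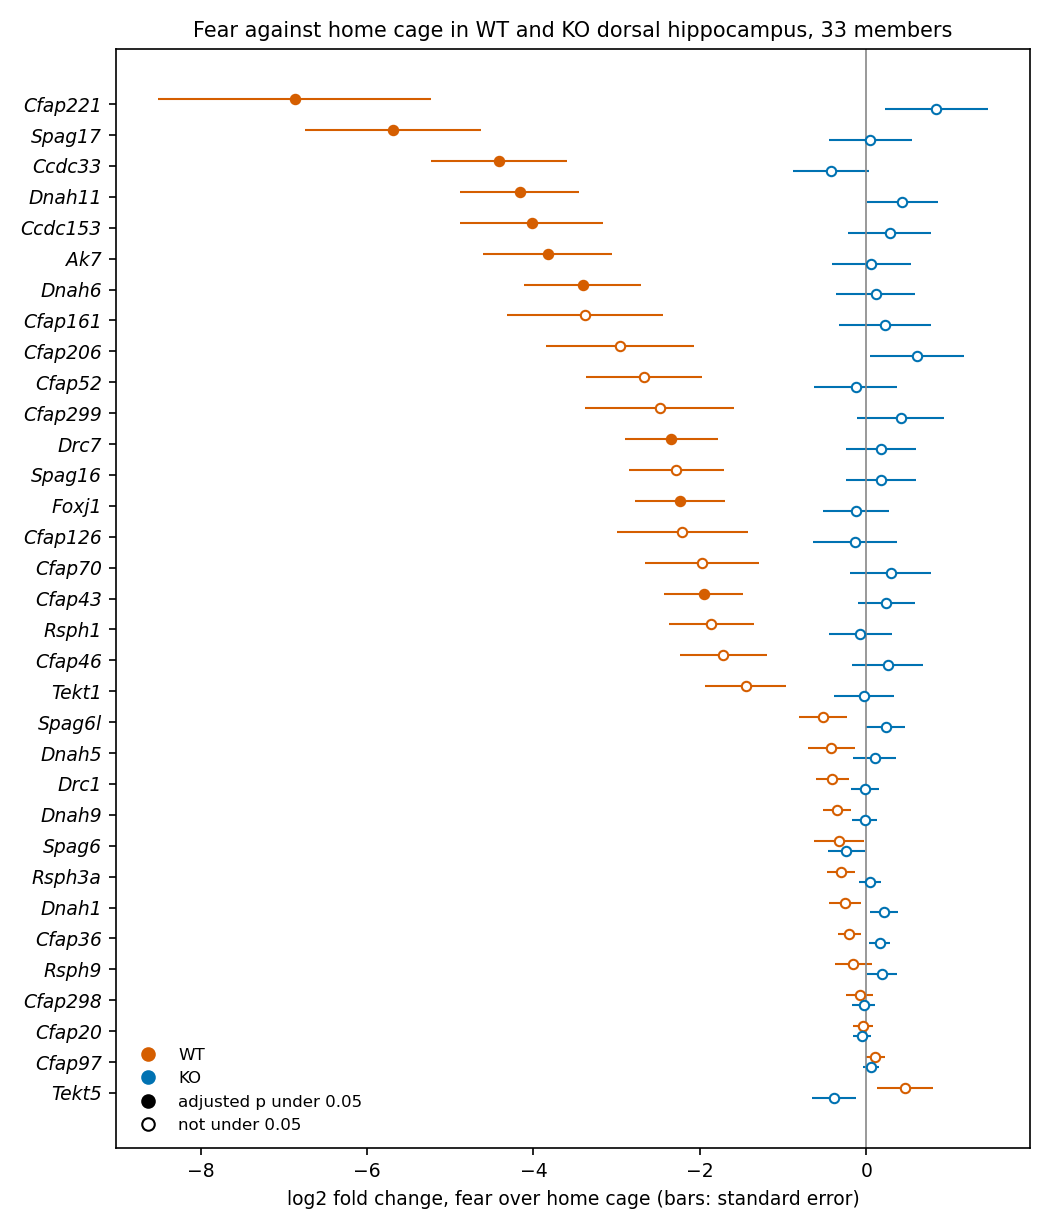
Log2 fold change of fear over home cage, with its standard error, for 33 members in WT (orange) and KO (blue), filled where the adjusted p is under 0.05. The 10 filled points are all WT and lie between -1.96 and -6.87, where the value of Cfap221 has 0 reads after fear and is set by the prior count; the KO points lie between -0.43 and 0.84.

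The difference between the 2 genotypes in the fear comparison was tested directly as an interaction, the KO change minus the WT change. It was positive for 4 of 56 members and negative for 0, against 0.196% of all genes positive and 0.479% in either direction. These were the dynein Dnah11 at 4.60 ± 0.78 (adjusted p = 0.0406), the central apparatus gene Spag17 at 5.74 ± 1.14 (0.0421), the nexin-dynein gene Ccdc153 at 4.30 ± 0.90 (0.0458) and the kinase Ak7 at 3.89 ± 0.83 (0.0477). Foxj1 was at 2.12 ± 0.59 and did not pass (adjusted p = 0.0794). The median over the 56 members was 1.38, against 0.03 over all genes, and 33 members had an unadjusted p under 0.05, against 21.9% of all genes. The interaction uses the same WT libraries as the comparison above and is not independent of it. It gave 21 members by DESeq2 (6.13% of all genes called) and 0 by voom (0% of all genes called). It gave 25 without KO home cage 1 (6.06% of all genes called), 16 without WT home cage 1 (4.45%), 14 without WT fear 1 (6.66%), and 1 without WT home cage 3 or without KO home cage 2. It gave 0 without WT home cage 2, 4 or 5, WT fear 2 or 3, KO home cage 4 or 5, or any single KO fear library.

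After fear, KO and WT libraries were compared with each other. KO was higher for 22 of 56 members and lower for 0, against 10.2% of all genes higher and 22.3% in either direction. The median log2 difference was 1.24, or 0.96 with Cfap221 at its bound, against 0.01 over all genes. The 4 KO fear libraries lay wholly above the 3 WT fear libraries for 20 members (10.7% of all genes) and wholly below for 0 (10.6% of all genes). This comparison shares its WT fear libraries with the first, so the 2 sets of values are given side by side only.

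Foxj1 was 1.89 ± 0.53 higher on the log2 scale in KO fear than in WT fear (adjusted p = 0.0241), with 12.01 ± 4.41 CPM (SD, n = 4) against 3.70 ± 1.34 CPM (n = 3). Ccdc153 was 4.26 ± 0.83 higher (adjusted p = 0.0155), at 11.4 ± 8.62 CPM against 0.750 ± 0.335 CPM. Dnah11 (3.70 ± 0.75), Dnah6 (2.64 ± 0.72), Drc7 (2.46 ± 0.55) and Ak7 (3.35 ± 0.79) were also higher and did not overlap. Of the low genes, Spag17 had 65 reads in KO fear against 1 in WT fear, a ratio of 26.9 (95% interval 4.67 to 1081), Ccdc33 had 72 against 3, a ratio of 9.95 (3.27 to 49.4), and Cfap221 had 33 against 0, at least 1.77-fold higher in KO.

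The other members that were higher came from several structures. Among Cfap genes these were Cfap126, known as Flattop (2.29 ± 0.77), Cfap161 (3.36 ± 0.93), Cfap206 (3.17 ± 0.86), Cfap299 (2.76 ± 0.87), Cfap43 (1.89 ± 0.47), Cfap46 (1.54 ± 0.54), Cfap52 (2.21 ± 0.72) and Cfap70 (2.12 ± 0.66). Cfap36, the most abundant member, was higher by 0.47 ± 0.14, with 138 to 206 CPM in KO fear and 114 to 158 CPM in WT fear, so that its groups overlapped. Rsph1 (1.55 ± 0.52), Rsph9 (0.63 ± 0.21), Spag16 (2.08 ± 0.57) and Tekt1 (1.46 ± 0.48) made up the rest. For Rsph9, Spag16, Tekt1 and Cfap46 the groups overlapped as well. The ranges of Cfap97, Cfap298, Cfap20 and Dnah9 overlapped too, and their differences of -0.04 to 0.24 did not pass.

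In batch B1, with 3 WT fear and 2 KO fear libraries, 27 members were higher in KO, against 17.3% of all genes called there in either direction. No member passed without WT fear 2, without WT fear 3 or without KO fear 2, while 14 passed without KO fear 1 (13.9% of all genes called) and 10 by voom (18.2% of all genes called). Beside the members, choroid plexus genes were called higher in KO fear (9 of 17, median 1.78, sums of 381 to 1010 CPM against 199 to 384 CPM). So were oligodendrocyte genes (10 of 15, median 0.87), ependymal markers outside the axoneme (9 of 14, median 1.36) and motile cilia genes with other symbols (24 of 61, median 1.28, 1 lower). In KO fear 3 and 4, of B3, the ependymal sums were 349.7 and 338.7 CPM, under each WT fear library (352.0 to 365.3 CPM). The sums of the other cilia genes there were 372.5 and 373.9 CPM, also under WT fear (382.1 to 412.8 CPM). For both lists KO fear 1 and 2, of B1, lay above WT fear. The defining ependymal markers differed from these sums. In KO fear 3 and 4 Ccdc153 was at 7.26 and 4.67 CPM, against 0.548 to 1.14 CPM in WT fear. Tmem212 was at 2.47 and 2.59 CPM against 0 to 0.188 CPM, and Rarres2 at 10.7 and 8.37 CPM against 2.26 to 3.28 CPM. Of the defining markers only Fam183b overlapped WT fear, at 5.70 and 4.47 CPM against 2.90 to 4.52 CPM. Of the members, 41 were higher in both of KO fear 1 and 2 than in KO fear 3 and 4, and 6 were lower. That split was not counted over all genes, so it is not read as a trait of the members. Genes of CA1 neurons were lower (7 of 9, median -1.17, against 12.1% of all genes lower). Their sums were 439 and 413 CPM in KO fear 1 and 2, under the 718 to 1226 CPM of WT fear. In KO fear 3 and 4 they were 928 and 1045 CPM, within the range of WT fear. Endothelial genes had 0 of 8 called, but their sum was 72.2 to 174 CPM in KO fear against 58.1 to 62.6 CPM in WT fear, without overlap. Microglial genes had 1 of 8 higher and sums of 543 to 679 CPM against 459 to 536 CPM, and neocortical genes 3 of 10 lower and sums of 257 to 267 CPM against 289 to 385 CPM, both without overlap. The part of these cell types in the members' difference was not tested.

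In the home cage, KO and WT were compared without fear. None of the 56 members passed, against 0.00675% of all genes, which is 1 gene, and DESeq2 and voom called 0 members as well. The median difference was -0.22 and 10 members had an unadjusted p under 0.05, against 11.3% of all genes. Of those 10, 6 were dynein heavy chains, named here because of that count: Dnah1 (-0.47 ± 0.15), Dnah5 (-0.50 ± 0.21), Dnah6 (-0.88 ± 0.40), Dnah10 (-0.97 ± 0.44) and Dnah11 (-0.90 ± 0.35) had lower estimates in KO, each with adjusted p = 0.44, and Dnah8 had a higher one (0.75 ± 0.33). Wholly lower in KO was 1 member, Cfap44 (1.38% of all genes), and 1 wholly higher, Rsph3b (1.71% of all genes).

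The last comparisons set KO and Het against WT, and KO against Het, in whole hippocampus, where 55 members were tested with 2 libraries per group and 3 residual degrees of freedom. In KO against WT 0 members passed (0.0388% of all genes), that is 0 were lower (0.0129% of all genes) and 0 higher (0.0259% of all genes), the median was 0.07 and 6 members had an unadjusted p under 0.05, against 6.09% of all genes. In Het against WT 0 passed (0% of all genes), with a median of -0.20 and 2 members at an unadjusted p under 0.05, against 13.9% of all genes. In KO against Het 0 passed (0.0841% of all genes), that is 0 were lower (0.0388% of all genes) and 0 higher (0.0453% of all genes), with a median of 0.26 and 6 members at an unadjusted p under 0.05, against 13.2% of all genes. DESeq2 and voom called 0 members in each. With 2 libraries per group many genes do not overlap: KO lay wholly below WT for 8 members (21.9% of all genes) and wholly above for 8 (20.2%), Het below WT for 20 (22.9%) and above for 3 (23.7%), and KO below Het for 4 (23% of all genes) and above for 16 (20% of all genes). The abundant dynein Dnah9 was at -0.47 ± 0.22 in Het against WT and 0.43 ± 0.21 in KO against Het. Without Het 1, which leaves 1 Het library, these log2 differences were -0.86 and 0.81 and rest on that library.

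The summed level in whole hippocampus was 502 and 540 CPM for WT, 486 and 487 CPM for Het and 598 and 491 CPM for KO. KO 1 had the highest level of 33 members among the 6 libraries, which was not counted over all genes. Drc7 differed widely between libraries of the same genotype, at 3.11 and 16.3 CPM for WT, 2.34 and 7.92 CPM for Het and 25.1 and 2.64 CPM for KO. Spag16 was at 1.19 and 3.66, 0.959 and 1.34, and 4.38 and 1.19 CPM, and Cfap206 at 1.19 and 2.94, 1.38 and 2.60, and 4.09 and 1.14 CPM in the same order. Tekt1 was at 2.24 and 4.38, 2.56 and 2.34, and 6.44 and 2.42 CPM. The 18 choroid plexus genes summed to 199 and 4062 CPM for WT, 225 and 1821 CPM for Het and 6577 and 227 CPM for KO. WT 2, Het 2 and KO 1 were thus higher than the other libraries for this list and for Drc7, Spag16 and Cfap206. For Spag16, Het 2 was only slightly higher, at 1.34 CPM against 1.19 CPM in WT 1 and KO 2. Of the 60 members, 12 had that order, a count not made over all genes. Not every member shared that order, for Ccdc153 was at 5.21 and 5.38, 5.81 and 5.43, and 6.98 and 6.43 CPM. The part of choroid plexus tissue in these values was not tested.

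**Figure D5:**
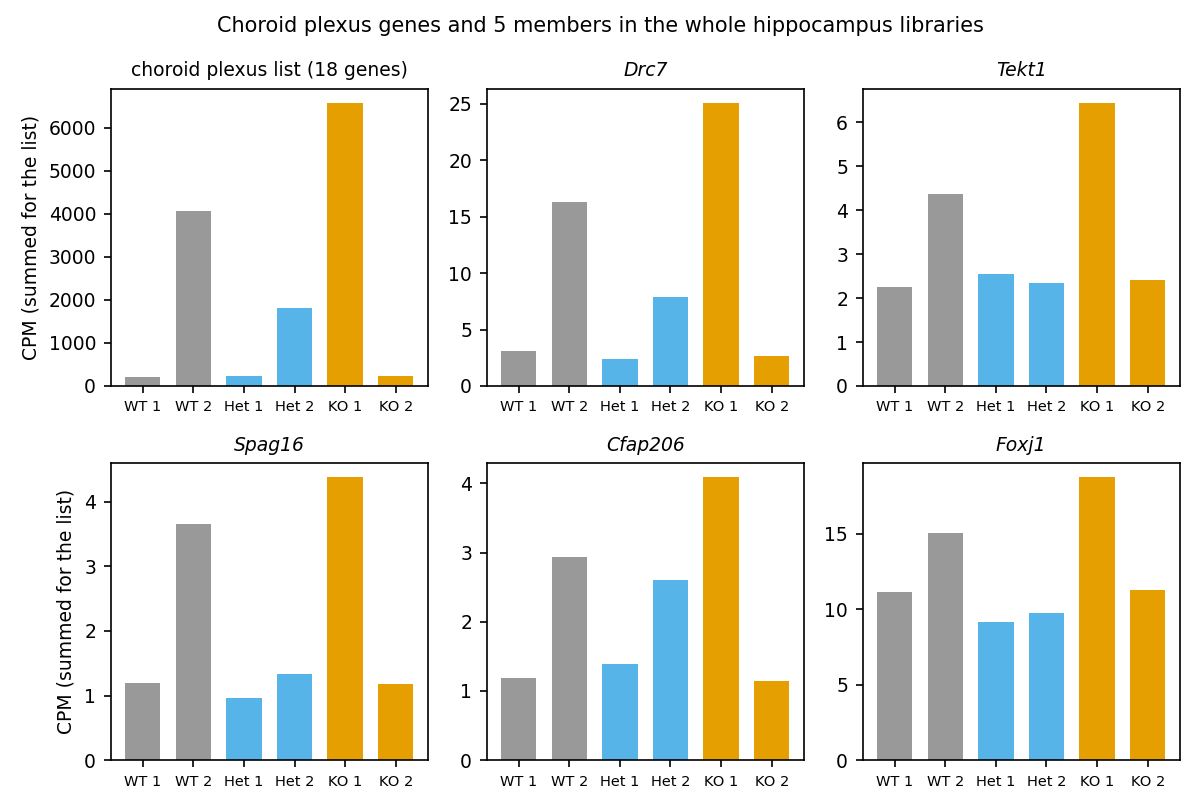
CPM in the 6 whole hippocampus libraries, as the sum of the 18 choroid plexus genes in the first panel and as the level of Drc7, Tekt1, Spag16, Cfap206 and Foxj1 in the other panels, each on its own axis from 0. WT 2 and KO 1 carry the highest bars in each panel, with 4062 and 6577 CPM for the choroid plexus list and 16.3 and 25.1 CPM for Drc7.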

How the data were processed

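The authors deposited 2 tables of counts, whole-number read counts per gene symbol, for 17 dorsal and 6 whole hippocampus libraries; mm10, HTSeq 0.9.1, SAMtools 1.1, STAR, limma and DESeq2 are named in the submitters' processing notes, with the gene annotation not given in the sources used here. Per the labels' protocols, 300 ng of RNA went into poly(A)-selected libraries (NEBNext Ultra II RNA kit). Each table was filtered with filterByExpr (at least 10 counts in enough libraries, 15 in total) and scaled by TMM, and was fitted with edgeR 4.0.16 in R 4.3.3 by the quasi-likelihood test. The dorsal fit had a term for each group and for batch (11 residual degrees of freedom), the whole hippocampus fit a term for genotype (3 residual degrees of freedom). Tests were two-sided, p-values were adjusted by Benjamini-Hochberg over all 14808 or 15453 genes tested, and the threshold was 0.05. The standard error is the log2 change divided by the square root of F. Library totals ran from 5362773 to 27293661, so genes of under 1 CPM rest on few reads in the shallow libraries. Replicate libraries of a group differed by more than sampling noise (chi-square per gene of 5.97 to 61.3 over 32 pairs), and all were kept. The scripts were tested on simulated counts. Members were placed on GENCODE M21 (mm10), and motifs were read from RefSeq promoters on GRCm38.p6. Alternatives were DESeq2 1.42.0, limma 3.58.1 (voom), other scalings and filters, a replicate block, no batch term, single batches, 2 groups alone and each library left out. The members named with values were Foxj1, Ccdc153, Ccdc33, Ak7, those passing in any comparison, and the 2 most abundant of each other role (4 for Cfap and Dnah); others are said to be chosen by their counts. The members and gene lists were chosen with earlier results of these data known.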

Additional observations from a re-analysis of the deposited data

Results flagged for a closer look

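Dixon's test was run on 108 sets of values, each a member or a member sum within a group of 4 or 5 libraries. The sets share the same libraries, so the count of flags cannot be compared with the 1 in 20 of independent sets. In 14 sets the highest library stood apart from the rest. KO home cage 1 accounted for 9 of them: the summed member level was 675.7 CPM there (next highest 513.9 CPM), Ccdc153 was at 29.15 CPM (7.96), Rsph1 at 15.68 CPM (6.01), Cfap161 at 8.493 CPM (2.17), Tekt1 at 8.141 CPM (3.98), Cfap206 at 4.071 CPM (1.33), Spag16 at 3.417 CPM (1.503), Cfap70 at 3.367 CPM (1.19) and Ccdc33 at 3.166 CPM (1.47). WT home cage 3 stood apart for Cfap206 at 4.875 CPM (2.51) and Dnah9 at 41.84 CPM (38.1). WT home cage 5 stood apart for Cfap298 at 42.63 CPM (37.8), and KO home cage 5 for Dnah1 at 7.327 CPM (6.18) and Spag6 at 3.856 CPM (3.28).

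The change with fear differed between KO and WT, by edgeR's test of the difference itself, for Dnah11 (4.60 on the log2 scale), Spag17 (5.74), Ccdc153 (4.30) and Ak7 (3.89). Each of these values is the KO change minus the WT change, and the cause was not tested.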

How the results depend on the processing

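Depth limited the low members most, since 1 read was worth up to 0.188 CPM in WT fear, and 3 members had 0 reads in all its libraries. All WT fear libraries are of batch B1, so WT fear against WT home cage and KO against WT after fear were also fitted within that batch. The interaction could not be fitted within B1, which holds no KO home cage library, and it relies on the batch term. No called member reversed its direction under any alternative run.

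For WT fear against home cage, 10 members passed, against 22 by DESeq2, 3 by voom, 17 with no filter beyond 1 read, 16 with no batch term, 3 within batch B1 and 2 with the 2 groups alone (Ak7 and Ccdc153); leaving out each library gave 0 to 21. For KO against WT after fear, 22 passed, against 10 by voom and 11 with no batch term, and 0 to 28 with each library left out. For the interaction, 4 passed, against 7 by RLE scaling, 21 by DESeq2, 0 by voom, 7 with a total count filter of 15, 14 with no filter, 0 with no batch term and 8 with libraries thinned to the smallest total, which was added after the data were seen; leaving out each library gave 0 to 25. With a replicate block the counts were 1 (Dnah11), 0 and 0 for these 3 comparisons. In the main fits 1.63%, 22.3% and 0.479% of all genes were called in either direction for these 3 comparisons. The share of all genes called moved with the setting too, as the values above for DESeq2 and voom show. These counts are therefore not read as a result about the members alone. Of the same-numbered dorsal pairs 9 of 22 correlated above 0.1 (median 0.04), against 31 of 85 differently numbered pairs (median -0.001). In whole hippocampus 2 of 6 same-numbered and 4 of 6 differently numbered pairs did. Replicate numbers were therefore not taken to pair the samples. The other counts were 0 throughout, leaving aside the whole hippocampus fits that left 1 library in a group. The mean summed level in whole Het was 487 CPM by library totals and 485 CPM by RLE. Without the 3 most-read members the sums were 351 and 216 CPM for WT without and with fear, 288 and 312 CPM for KO likewise, and 337, 295 and 345 CPM in whole WT, Het and KO. The cause of these shifts was not tested.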
